A study of Homo sapiens with 3 samples.

Results

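Angiomotins, YAP, TAZ, TEAD factors and LATS kinases form the core of the Hippo pathway, and 10 of their genes were followed here on 3 expression arrays. Every probe set (a group of short probes that reads 1 stretch of a transcript) annotated to AMOT, AMOTL1, AMOTL2, YAP1, WWTR1, TEAD1, TEAD2, TEAD4, LATS1 or LATS2 was taken. This gave 29 of the 54675 probe sets on the array, for 10 of 19775 genes. The group was chosen by the log2 ratios of AMOTL1 on these same arrays, where it read low on 2 of 3, so the values of the 10 genes are given as a description. The cells were labelled HepG2, a human liver tumour line. Stable transfection gave 3 groups of 1 array each, which carried a vector with the Hsp27 ORF (open reading frame), a vector with an Hsp27 shRNA, or a control vector. The sample titles call them IRES2-HSP27, HSP27-SiRNA and EGFP-NC, so the second is an shRNA in one label and an siRNA in another. HSPB1 encodes Hsp27, a small heat shock protein that acts as a chaperone. All 3 cultures were grown in DMEM with fetal bovine serum. The labels do not say whether each culture was 1 clone or a pool.

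In the Hippo pathway the kinases MST1 and MST2 activate LATS1 and LATS2, which phosphorylate the coactivators YAP (YAP1) and TAZ (WWTR1) and so keep them out of the nucleus. Unphosphorylated YAP and TAZ enter the nucleus, bind TEAD factors and switch on growth and matrix genes. Angiomotins (AMOT, AMOTL1, AMOTL2) sit at tight junctions and on actin filaments, where they hold YAP and TAZ in the cytoplasm and can help activate LATS. AMOTL2 and LATS2 are themselves known YAP targets. In liver the pathway is known for limiting organ size and for restraining tumours.

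Promoter windows from RefSeq (build GRCh38.p14, 250 bases before to 50 after a start of the gene) were found for 8 of the 10 genes. There were 12 windows in all, with none for TEAD1 and TEAD4. A window need not lie at the outermost start of its gene. The letters GGAATG, or CATTCC on the other strand, are the core of the TEAD binding motif. They occurred in 3 of the 12 windows, those of AMOTL2, LATS2 and YAP1, and in 14.0% of all 35116 windows of this length. The AP-1 motif, searched as TGACTCA or TGAGTCA, occurred in 0 of the 12 and in 4.95% of all. The windows with a TEAD match are shown beside that of AMOTL1, the gene that differed most, and TEAD letters are in capitals. Each runs 5′ to 3′ along the gene, down to base 20 of the transcript. That of AMOTL1 is chr11:94768106-94768375 on the plus strand and holds no match. It lies inside the gene's span (94706460-94876748), so the outermost AMOTL1 start was not searched. That of AMOTL2 is chr3:134374428-134374697 on the minus strand, with the match beginning 69 bases before the start. It is the second of the 2 AMOTL2 windows, and the other holds no match. That of LATS2 is chr13:21061567-21061836 on the minus strand, with the match beginning at base 10 of the transcript. That of YAP1 is chr11:102110197-102110466 on the plus strand, with the match beginning 162 bases before the start.
AMOTL1: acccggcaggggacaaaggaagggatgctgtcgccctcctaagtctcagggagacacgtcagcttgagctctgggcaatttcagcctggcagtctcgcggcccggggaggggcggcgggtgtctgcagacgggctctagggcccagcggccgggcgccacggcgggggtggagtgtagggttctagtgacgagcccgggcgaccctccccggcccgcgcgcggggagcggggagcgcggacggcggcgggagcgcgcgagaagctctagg
AMOTL2: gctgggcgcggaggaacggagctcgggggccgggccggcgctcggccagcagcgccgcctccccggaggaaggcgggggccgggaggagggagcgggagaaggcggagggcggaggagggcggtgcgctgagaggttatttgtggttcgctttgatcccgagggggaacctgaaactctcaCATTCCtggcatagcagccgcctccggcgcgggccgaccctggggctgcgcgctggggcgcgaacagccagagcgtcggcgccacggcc
LATS2: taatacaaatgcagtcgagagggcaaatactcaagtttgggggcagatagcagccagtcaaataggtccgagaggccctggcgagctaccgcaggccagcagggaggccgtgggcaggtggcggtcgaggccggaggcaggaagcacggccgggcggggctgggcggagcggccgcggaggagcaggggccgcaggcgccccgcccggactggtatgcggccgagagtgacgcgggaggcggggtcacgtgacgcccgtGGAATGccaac
YAP1: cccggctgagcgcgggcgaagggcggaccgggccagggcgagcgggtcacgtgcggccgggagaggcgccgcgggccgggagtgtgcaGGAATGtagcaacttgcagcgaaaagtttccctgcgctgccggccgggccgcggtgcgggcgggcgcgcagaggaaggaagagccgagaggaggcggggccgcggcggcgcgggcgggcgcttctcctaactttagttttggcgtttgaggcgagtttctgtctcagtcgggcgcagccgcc
The 300-base AMOTL1 window was 72% G and C and held 33 CpG dinucleotides, where the median G and C content of all windows was 58.7%. A match is a description of letters and not a site shown to be bound.

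All levels are log2 signals, and values below 5.93, the median of all probe sets on the 3 arrays (60.8 in linear units), were raised to it for every log2 ratio unless stated. Genes whose brightest array reached the 75th percentile, 8.63 (396.6 linear), are called bright. There was 1 array per group and thus no replicate error, so no difference carries a p-value or speaks for more than these arrays. As a measure of error, each log2 ratio is given with a noise SD. It is the SD between log2 ratios of probe sets that read the same gene at a like signal, and it holds no variation between cultures. HSPB1, the targeted gene, read 13.11 (ORF), 13.03 (shRNA) and 13.25 (control). Its log2 ratio was -0.14 for ORF over control (noise SD 0.08) and -0.22 for shRNA over control (noise SD 0.12). The control was highest, so the array labelled ORF did not show the higher signal its label would predict. Of 646 genes of like signal, 17.8% lay as low for ORF over control. HSPB1 had 1 probe set, and whether that probe set reads the transcript of the vector was not tested. On the array labelled shRNA the signal was only 1.16-fold lower than control, and 9.13% of 646 genes of like signal lay as low. For ORF over shRNA the ratio was 0.08 (noise SD 0.08), so HSPB1 did not tell these 2 arrays apart. Every direction below thus rests on the labels. Of 8 hepatocyte markers with a probe set of 1 gene, AFP and RBP4 passed the floor in the probe set of highest mean signal, by which genes are represented throughout. AFP did so only on the array labelled shRNA and narrowly, at 5.70 (ORF), 6.25 (shRNA) and 5.75 (control). ALB, TTR, APOB, FGB and GPC3 were below the floor in every probe set. APOA1 was below it in its probe set of highest mean signal but passed in 1 of its 3. Of 10 mesenchymal markers 9 were above the floor, among them VIM and CDH2, against 3 of 8 endothelial and 2 of 6 leukocyte markers, with 0 bright in either list. Most of the hepatocyte markers measured were thus at or below the floor in cells labelled as a liver line.

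AMOTL1 was lower on the arrays labelled ORF and shRNA than on the array labelled control. AMOTL1 encodes angiomotin-like 1, a junction protein that binds YAP. Its brightest probe set, 225450_at, read 8.37 (ORF), 8.52 (shRNA) and 10.20 (control), or 331.5, 366.4 and 1177 in linear units in the same order of arrays. Only the control array was above the 75th percentile there. The log2 ratio was -1.83 for ORF over control (noise SD 0.21), a 3.55-fold lower signal, and -1.68 for shRNA over control (noise SD 0.27), 3.21-fold lower. These 2 comparisons share the control array. Set directly against each other, the arrays labelled ORF and shRNA differed by -0.14, inside the noise SD of 0.23.

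The place of AMOTL1 among bright genes is given as a description, because the gene was chosen for it. It had the lowest log2 ratio of 8181 bright genes for ORF over control and again for shRNA over control. AMOTL1 counts as bright only through the control array, where it was high, so this rank is no support for the difference. Over all 12664 genes above the floor the lowest ratios were -2.03 and -2.09, below those of AMOTL1. Among the 1856 genes within 0.5 of its mean log2 signal, 1 reached as low a ratio in either comparison, AMOTL1 itself. For ORF over shRNA, 412 of the same 1856 genes (22.2%) lay as far down. The low rank was thus seen against the control array, and not between the arrays labelled ORF and shRNA. The signals of the 8 hepatocyte markers summed to 1225 (ORF), 1245 (shRNA) and 1818 (control) in linear units, also highest on control, most of it from RBP4, a retinol carrier, at 9.97 (ORF), 9.99 (shRNA) and 10.62 (control). The part of this difference in the AMOTL1 result was not tested.

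The other AMOTL1 probe sets were dim and give only limited evidence on direction or size. Probe set 225459_at read 5.03 (ORF), 5.41 (shRNA) and 6.74 (control), above the floor only on the control array. Its signal was thus at least 1.76-fold lower on each of the arrays labelled ORF and shRNA (log2 ratio to the floor -0.82, noise SD 0.40 and 0.43). The mean of 225459_at, 5.73, lay below the floor, so these noise SDs come from brighter probe sets and may not hold for it. Probe set 228840_at read 6.45 (ORF), 6.51 (shRNA) and 6.71 (control). Its ratios of -0.26 and -0.20 were inside their noise SDs of 0.42 and 0.43. The fourth, 235277_at, was below the floor throughout at 5.01 (ORF), 4.58 (shRNA) and 5.61 (control). The size of the AMOTL1 difference thus rests on 1 probe set, 225450_at. Taking the median over the 4 probe sets gave ratios of -0.54 and -0.51 in place of -1.83 and -1.68. In that median the floor set the ratios of 235277_at to 0 and held those of 225459_at at -0.82, so its size depends in part on the floor.

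**Figure D1:**
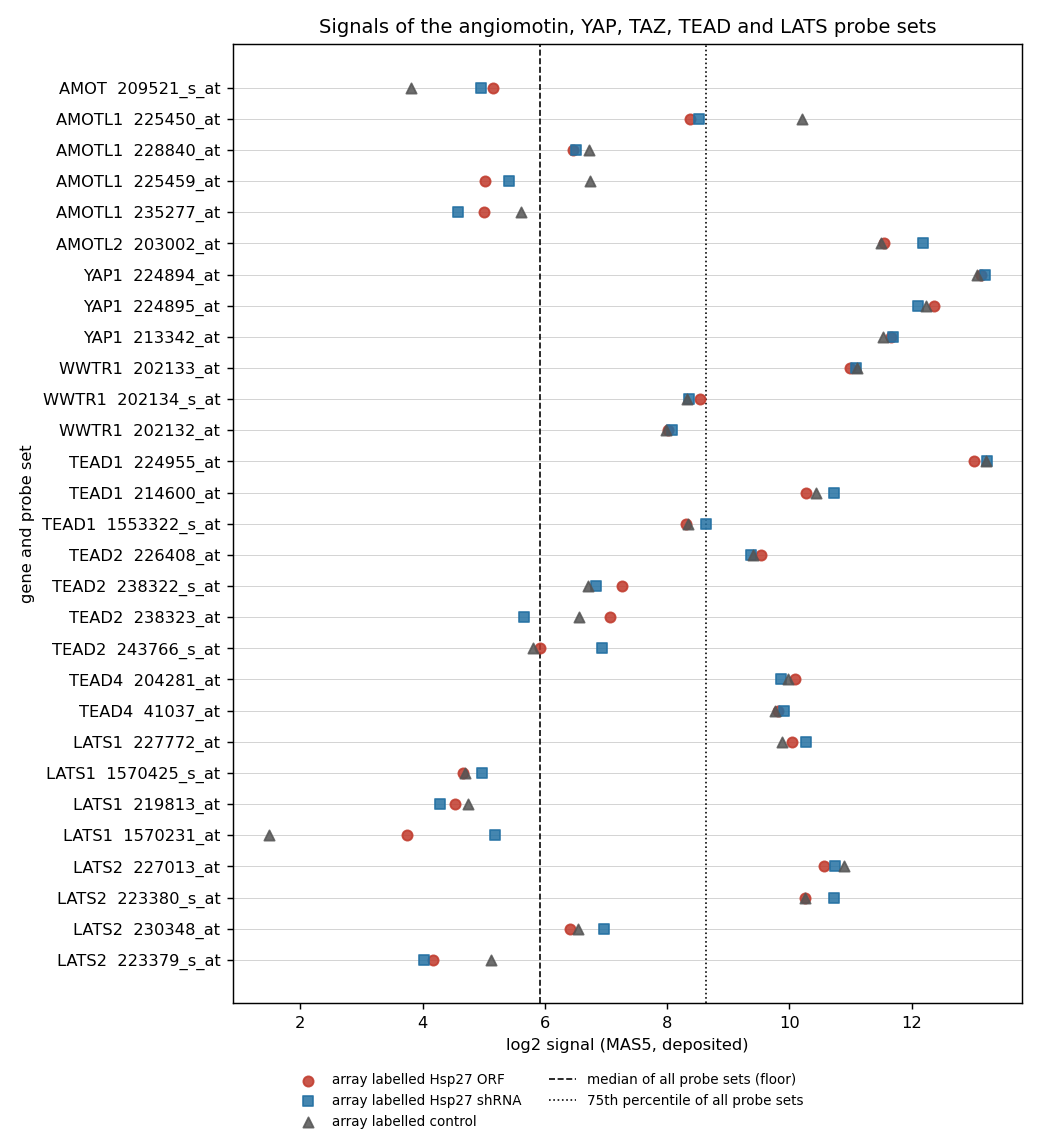
Log2 signals (horizontal axis) of the 29 probe sets, 1 row each, on the arrays labelled Hsp27 ORF (circles), Hsp27 shRNA (squares) and control (triangles), with the floor of 5.93 dashed and the 75th percentile of 8.63 dotted. AMOTL1 225450_at stands at 8.37 on ORF, 8.52 on shRNA and 10.20 on control, while most bright rows show the 3 arrays close together.

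Genes beside AMOTL1 on chromosome 11 had ratios to control much nearer 0 than its own, most of them also negative. The 5 measured genes on each side in RefSeq order were MED17, PANX1, MRE11, ANKRD49 and FUT4 before it and CWC15, SRSF8, ENDOD1, FAM76B and CEP57 after it. Their log2 ratios ran between -0.50 and 0.31 for ORF over control, with a median of -0.14, and between -0.72 and 0.31 for shRNA over control, with a median of -0.23. Of the 10, 7 were below 0 in each comparison, where 6251 (ORF) and 6469 (shRNA) of all 12664 genes above the floor were. The 2 comparisons share the control array, so they are not separate readings. The lowest of the 10 in each was FUT4, a fucosyltransferase gene and the nearest measured neighbour before AMOTL1. It read 7.11 (ORF), 6.89 (shRNA) and 7.61 (control), with noise SDs of 0.36 and 0.38, and 1 of its 2 measured probe sets had that sign. CWC15, a splicing factor gene and the nearest after AMOTL1, read 12.94 (ORF), 12.82 (shRNA) and 13.16 (control). Its ratios of -0.22 and -0.34 exceeded their noise SDs of 0.08 and 0.12. For shRNA over control ANKRD49, SRSF8 and CEP57 were at -0.44, -0.39 and -0.36, beyond their noise SDs of 0.17. MRE11, a DNA repair nuclease gene, was higher at 11.01 (ORF), 10.92 (shRNA) and 10.70 (control), with that sign in 1 of its 2 measured probe sets. MRE11 and ANKRD49 overlap in the gene table, so their signals may not be separate.

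**Figure D2:**
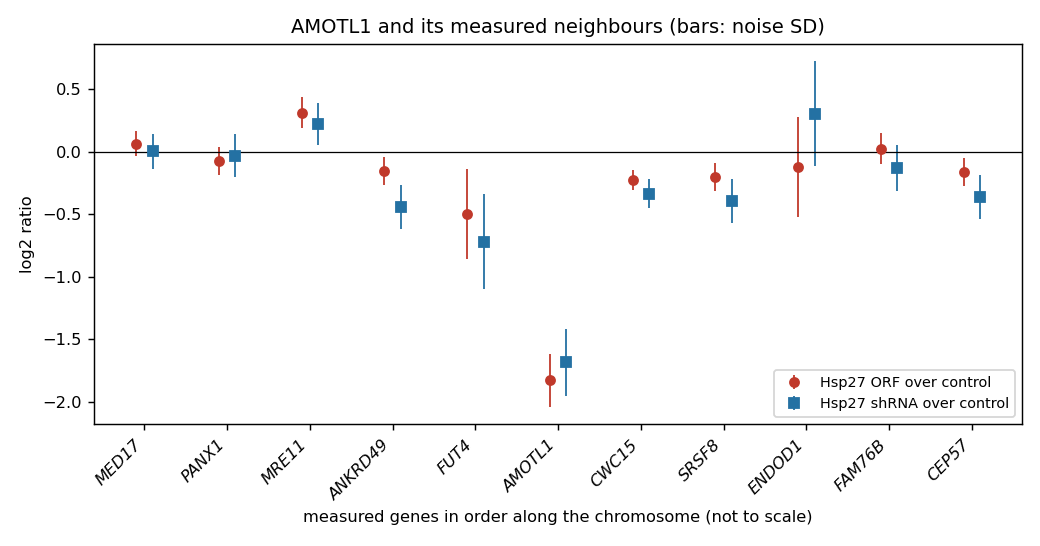
Log2 ratios (vertical axis) of AMOTL1 and the 5 measured genes on each side of it in chromosome order (horizontal axis, not to scale), for ORF over control (circles) and shRNA over control (squares), with bars of 1 noise SD. AMOTL1 lies at -1.83 and -1.68, and its neighbours lie between -0.72 and 0.31.

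The genes most like AMOTL1 were sought among the 8180 other bright genes, by the distance between their pairs of log2 ratios to control, over the 3 arrays. None lay within 0.5 of AMOTL1. The nearest was TOX, a chromatin factor gene, at a distance of 0.79 (ratios -1.31 for ORF and -1.08 for shRNA). It was followed by the pseudogene GOLGA2P5 at 0.88 (-1.01 and -1.38) and by DNMT3L, a regulator of DNA methylation, at 1.05 (-1.01 and -1.03). EDIL3, a secreted integrin ligand, was at 1.05 (-1.68 and -0.64), and COL5A2, a fibrillar collagen, at 1.07 (-0.94 and -1.08). TOX and DNMT3L each had 1 probe set above the floor, and all measured probe sets of the other 3 had the same sign in both comparisons.

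AMOTL2 was higher on the array labelled shRNA than on either of the other arrays. It encodes angiomotin-like 2, which links junctions to actin and, like AMOTL1, binds YAP. Its only probe set, 203002_at, read 11.55 (ORF), 12.18 (shRNA) and 11.50 (control), or 2994, 4644 and 2903 in linear units in that order. The log2 ratio was 0.68 for shRNA over control (noise SD 0.14, 1.60-fold) and -0.63 for ORF over shRNA (noise SD 0.12). For ORF over control it was 0.04, inside the noise SD of 0.10. Among 1445 genes of like mean signal, 2 including AMOTL2 reached its ratio for shRNA over control, and 7 reached that for ORF over shRNA. AMOTL1 and AMOTL2 thus stood apart on different arrays, AMOTL1 high on control and AMOTL2 high on shRNA. AMOT, the founding angiomotin, was below the floor at 5.16 (ORF), 4.96 (shRNA) and 3.80 (control), so it has no ratio here.

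YAP1 stayed within 0.26 log2 units between any 2 arrays in each of its 3 probe sets. It encodes YAP, the coactivator that carries the pathway's output. Probe set 224894_at read 13.13 (ORF), 13.20 (shRNA) and 13.06 (control). The second, 224895_at, read 12.36 (ORF), 12.10 (shRNA) and 12.23 (control), and the third, 213342_at, read 11.66 (ORF), 11.70 (shRNA) and 11.53 (control). The shRNA array was highest in 2 of them and lowest in 1, so the probe sets did not give a common order. With the probe sets in the order named, ratios for ORF over control were 0.06, 0.13 and 0.13, with noise SDs of 0.08, 0.10 and 0.11. For shRNA over control they were 0.13, -0.13 and 0.17, with noise SDs of 0.12, 0.14 and 0.17. For ORF over shRNA they were -0.07, 0.26 and -0.03, with noise SDs of 0.08, 0.12 and 0.15. WWTR1, which encodes TAZ, the paralog of YAP, read 10.99 (ORF), 11.09 (shRNA) and 11.11 (control) in its brightest probe set. Its ratios of -0.12 and -0.02 were inside their noise SDs of 0.12 and 0.17. The other WWTR1 probe sets had ratios from 0.03 to 0.22 for ORF and from 0.04 to 0.09 for shRNA, all inside their noise SDs.

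TEAD1 was lowest on the array labelled ORF in each of its 3 probe sets. TEAD factors are the DNA-binding partners of YAP and TAZ. Its probe set 224955_at read 13.02 (ORF), 13.22 (shRNA) and 13.21 (control). Probe set 214600_at read 10.27 (ORF), 10.72 (shRNA) and 10.44 (control), and 1553322_s_at read 8.31 (ORF), 8.63 (shRNA) and 8.34 (control). For ORF over shRNA the ratios were -0.20, -0.45 and -0.32, each beyond its noise SD (0.08, 0.16 and 0.23), though short of 1.5-fold. TEAD4 was inside its noise SDs against control in both probe sets, and for ORF over shRNA its ratios had opposite signs, 0.22 (noise SD 0.15) and -0.09 (noise SD 0.19). It read 10.08 (ORF), 9.86 (shRNA) and 9.97 (control) in 204281_at, and 9.81 (ORF), 9.90 (shRNA) and 9.76 (control) in 41037_at.

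The dim probe sets of TEAD2 differed in sign wherever the array labelled shRNA was compared. Its bright probe set 226408_at read 9.53 (ORF), 9.37 (shRNA) and 9.41 (control), and all its ratios were inside their noise SDs. Near the floor, 238323_at read 7.06 (ORF), 5.66 (shRNA) and 6.55 (control), while 243766_s_at read 5.92 (ORF), 6.93 (shRNA) and 5.81 (control). Their ratios for ORF over shRNA were thus 1.14 and -1.0, opposite in sign, with noise SDs of 0.40, each a bound because 1 array was below the floor. The fourth, 238322_s_at, read 7.26 (ORF), 6.83 (shRNA) and 6.71 (control). For ORF over control, 238322_s_at and 238323_at were at 0.55 (noise SD 0.42) and 0.51 (noise SD 0.40), and 243766_s_at was below the floor on both arrays.

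LATS1 and LATS2 encode the kinases that phosphorylate YAP and TAZ. LATS1 read 10.04 (ORF), 10.28 (shRNA) and 9.87 (control) in 227772_at, its only probe set above the floor. The ratio for shRNA over control was 0.41 (noise SD 0.19), and 6.06% of the 2014 genes of like signal lay as high. The ratio for ORF over control was 0.16 (noise SD 0.15). The other 3 LATS1 probe sets were below the floor on every array, with readings between 1.48 and 5.19.

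The bright LATS2 probe sets did not rank the arrays alike. Probe set 227013_at read 10.57 (ORF), 10.74 (shRNA) and 10.90 (control), highest on control. Probe set 223380_s_at read 10.25 (ORF), 10.72 (shRNA) and 10.25 (control), and the dim 230348_at read 6.41 (ORF), 6.96 (shRNA) and 6.55 (control), both highest on shRNA. For shRNA over control the ratios were therefore -0.16, 0.47 and 0.42, with noise SDs of 0.17, 0.18 and 0.43. For ORF over shRNA all 3 had the same sign, at -0.16, -0.48 and -0.55, with noise SDs of 0.14, 0.16 and 0.43. For ORF over control, 227013_at was at -0.33 (noise SD 0.12), and the other probe sets at -0.006 and -0.13. The fourth, 223379_s_at, was below the floor at 4.17 (ORF), 4.01 (shRNA) and 5.12 (control).

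**Figure D3:**
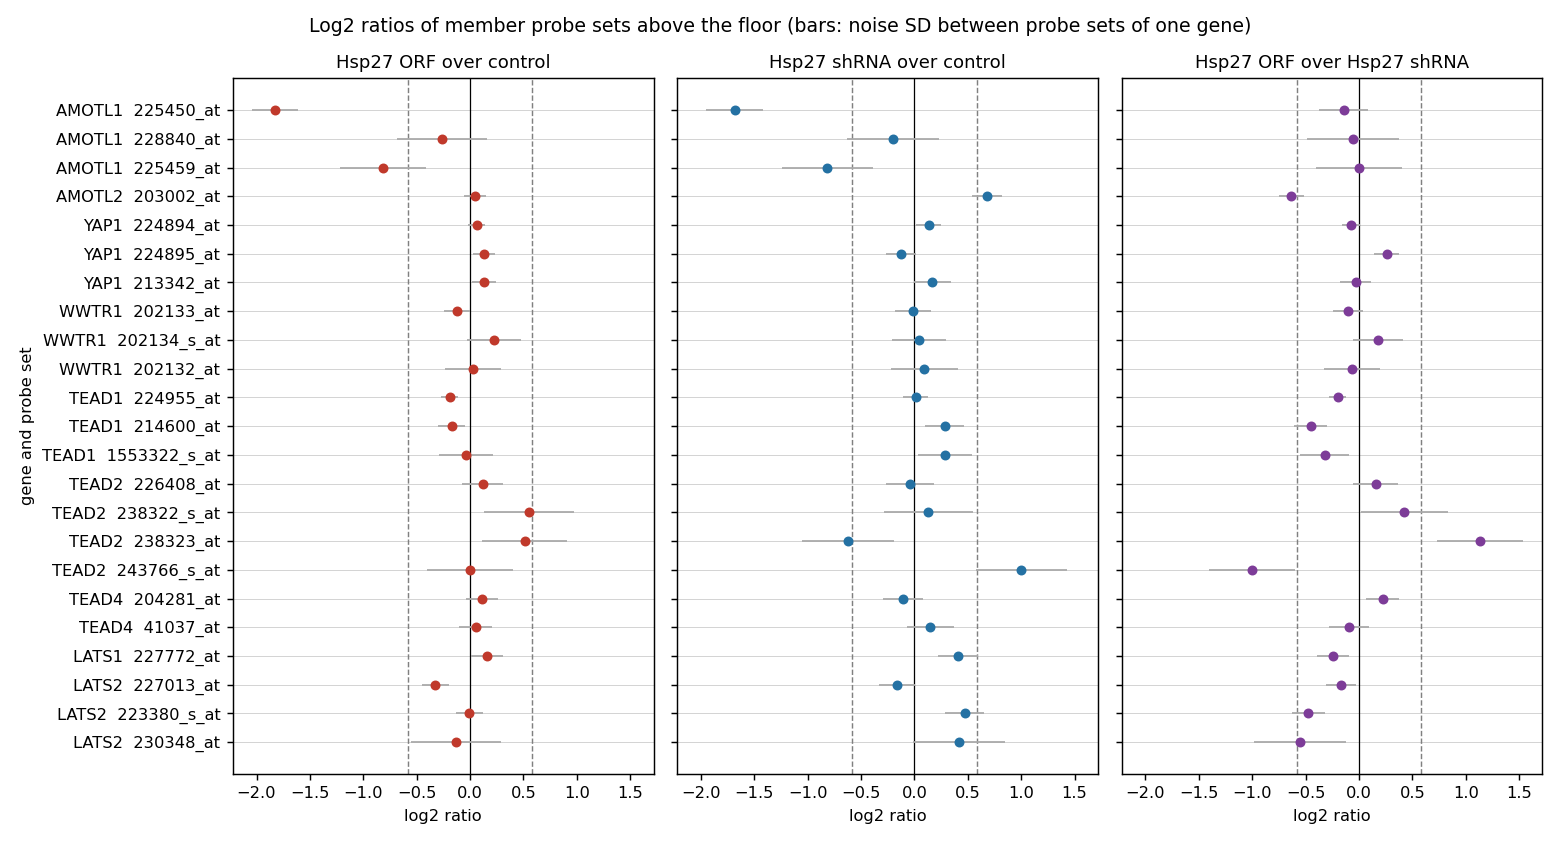
Log2 ratios (horizontal axis) of the 23 probe sets above the floor on at least 1 array, in a panel for each comparison, with bars of 1 noise SD and dashed lines at 1.5-fold. AMOTL1 225450_at lies at -1.83 and -1.68 against control and at -0.14 for ORF over shRNA, and AMOTL2 lies at 0.68 for shRNA over control.

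Counted together, 9 of the 10 genes were above the floor, and all 9 were bright. For ORF over control, 0 were at least 1.5-fold higher and 1, AMOTL1, at least 1.5-fold lower, where 3.04% and 2.82% of all 12664 genes above the floor were. For shRNA over control, AMOTL2 was higher and AMOTL1 lower, against 3.59% and 3.3% of all genes. For ORF over shRNA, 0 were higher and 1, AMOTL2, lower, against 2.64% and 2.68%. Over the 8181 bright genes the shares were 1.33% and 0.93%, 1.82% and 1.41%, and 1.05% and 0.95% in these comparisons. By probe set, 23 of the 29 passed the floor on 1 or more of the arrays. Of these, 0 were higher and 2 lower for ORF over control, against 3.63% and 3.05% of all probe sets above the floor. For shRNA over control 2 were higher and 3 lower, against 4.41% and 3.56%, and for ORF over shRNA 1 was higher and 2 lower, against 3.12% and 3.15%. AMOTL1 helped to choose the genes, so nothing is read from these shares. The median log2 ratio of the 9 genes was 0.04, -0.02 and -0.14 in the 3 comparisons in the same order, and the medians of all genes above the floor were 0, -0.006 and 0.005. Of the 13 bright probe sets of the genes other than AMOTL1, 3 read highest on the array labelled ORF, 8 on shRNA and 2 on control. Of all 12753 bright probe sets 30.8% read highest on ORF, 33.3% on shRNA and 35.9% on control. Probe sets of 1 gene share their transcript, so the 13 are readings of 8 genes.

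Upstream of LATS, 15 of 19 listed kinases and scaffolds were above the floor. Of all genes above the floor, 3.04% were at least 1.5-fold higher for ORF over control and 3.59% for shRNA over control. MAP4K4, a kinase that can activate LATS, was 1.80-fold higher for ORF and 2.01-fold higher for shRNA than control, the only 1 of the 15 past 1.5-fold. It read 10.01 (ORF), 10.17 (shRNA) and 9.17 (control), with log2 ratios of 0.85 (noise SD 0.15) and 1.0 (noise SD 0.22). Like AMOTL1 it thus stood apart on the control array, but in the opposite direction, and 4 of its 5 measured probe sets had the same sign for ORF and 5 for shRNA. STK3, which encodes MST2, read 10.16 (ORF), 10.62 (shRNA) and 10.72 (control), a ratio of -0.57 for ORF over control (noise SD 0.12). Only 1 of its 2 probe sets had that sign. WWC3, a scaffold gene of the KIBRA family, had a ratio of 0.43 for ORF over control (noise SD 0.19) and 0.46 for ORF over shRNA (noise SD 0.21). MAP4K5 was at 0.45 (noise SD 0.19) and RASSF1, an MST-binding scaffold, at -0.38 (noise SD 0.18) for shRNA over control. The median ratios of the list were 0.07 (ORF over control), 0.06 (shRNA over control) and -0.09 (ORF over shRNA).

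Proteins that restrain the kinases and partners that meet the angiomotins at junctions mostly stayed inside 1.5-fold. Of 10 measured STRIPAK subunits and Ajuba family genes, 0 were higher, and the dim WTIP was lower for ORF over control (-0.62, noise SD 0.36) and for ORF over shRNA (-0.70, noise SD 0.35). STRN, a STRIPAK scaffold, was at 0.53 for shRNA over control (noise SD 0.19), and 4 of its 7 measured probe sets had that sign. AJUBA, a LIM protein that binds LATS, was at -0.25 for ORF over control (noise SD 0.10). Of 10 measured junction and polarity genes, 0 passed 1.5-fold in any of the 3 comparisons. In each comparison and direction, 2.64% to 3.59% of all genes above the floor passed 1.5-fold. Nothing is thus read from counts of 0 or 1 in 10 in either list. The largest differences among the bright junction and polarity genes were for ORF over control. They were those of PTPN14, a phosphatase that binds YAP, at -0.54 (noise SD 0.11), and of PALS1, a polarity scaffold, at -0.41 (noise SD 0.10). PTPN14 read 11.31 (ORF), 11.69 (shRNA) and 11.86 (control), and PALS1 read 11.68 (ORF), 12.05 (shRNA) and 12.09 (control). Both were lowest on the array labelled ORF.

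The listed ubiquitin ligases and tankyrases that act on angiomotins were close together on the 3 arrays. All 7 were bright, 0 passed 1.5-fold, and their ratios ran from -0.18 to 0.28 for ORF over control and from -0.30 to 0.27 for shRNA over control. The ubiquitin ligases ITCH and NEDD4L were at 0.28 (noise SD 0.19) and 0.27 (noise SD 0.12) for ORF over control. RNF146, the ligase that acts with tankyrases on angiomotins, was at -0.30 for shRNA over control (noise SD 0.22). Only 1 of its 2 measured probe sets had that sign. The 10 genes for turnover and cytoplasmic retention of YAP and TAZ, among them the 14-3-3 proteins, were all bright and all inside 1.5-fold. The shares of bright genes given above apply here too, so nothing is read from that count. The largest ratio of the 10 genes was that of the 14-3-3 gene YWHAE, 0.30 for shRNA over control (noise SD 0.12).

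Among other TEAD partners, VGLL3, a vestigial-like cofactor gene, read highest on the array labelled shRNA, as AMOTL2 did. VGLL3 read 10.26 (ORF), 11.0 (shRNA) and 10.43 (control). Its ratios were 0.57 for shRNA over control (noise SD 0.18) and -0.75 for ORF over shRNA (noise SD 0.16), and both of its measured probe sets had these signs. TEAD3 read 9.32 (ORF), 9.26 (shRNA) and 9.20 (control), and VGLL4 9.66 (ORF), 9.52 (shRNA) and 9.67 (control), all inside their noise SDs. VGLL1 and VGLL2 were below the floor.

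Known target genes of YAP and TAZ included CCN1, CCN2 and IGFBP3, which read highest on the array labelled shRNA. Of 18 measured targets, 1 was at least 1.5-fold higher and 3 were lower for ORF over shRNA, where 2.64% and 2.68% of all genes were. Their median ratio was -0.13, with 14 of 18 below 0, where 5929 of all 12664 genes were. For ORF over control 1 was higher and 1 lower (median -0.08), against 3.04% and 2.82% of all genes. Over the same 18, 2 were higher and 1 lower for shRNA over control (median 0.14), against 3.59% and 3.3%. CCN1, a matricellular protein and a standard readout of YAP activity, read 12.59 (ORF), 13.40 (shRNA) and 12.68 (control). Its ratio was 0.73 for shRNA over control (noise SD 0.12) and -0.81 for ORF over shRNA (noise SD 0.08), and both of its probe sets had these signs. CCN2, its relative, read 8.95 (ORF), 9.84 (shRNA) and 9.43 (control), and IGFBP3, an IGF-binding protein, 11.35 (ORF), 12.03 (shRNA) and 11.43 (control). These 3 genes, like AMOTL2 and VGLL3, read highest on the array labelled shRNA. CCN2, with 1 probe set, had a ratio of 0.40 for shRNA over control (noise SD 0.23). Of the 18 targets, 12 were above 0 and 6 below for shRNA over control, where 5975 and 6469 of all 12664 genes were. NT5E, the ecto-nucleotidase CD73, went another way and read highest on ORF at 8.84 (ORF), 7.87 (shRNA) and 7.74 (control). CCDC80 was lower for ORF over control (-0.59, noise SD 0.25) and the dim ARHGEF17 lower for shRNA over control (-0.73, noise SD 0.38). RBMS3 was at -0.52 (noise SD 0.21) and -0.54 (noise SD 0.27) in those comparisons, with that sign in 2 of its 4 measured probe sets. AMOTL2 and LATS2, known targets too, are counted with the 10 genes instead.

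**Figure D4:**
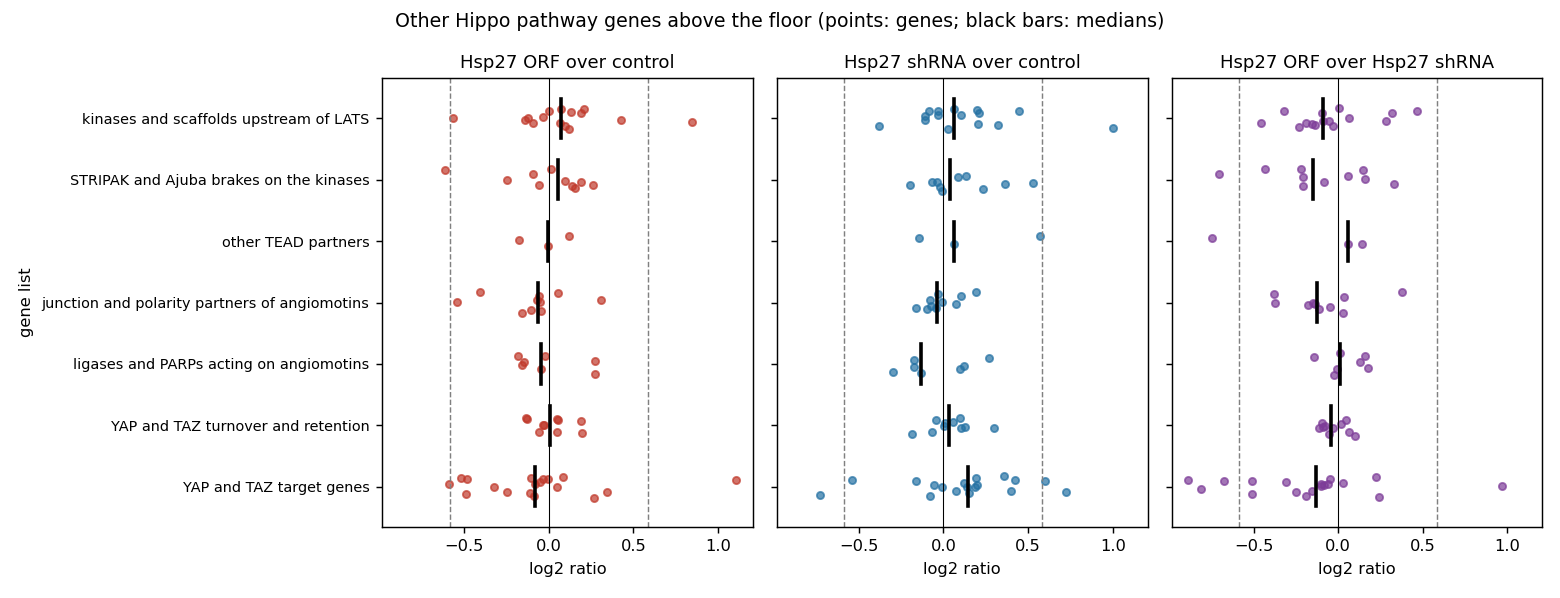
Log2 ratios (horizontal axis) of the measured genes of 7 other Hippo pathway lists (rows), in a panel for each comparison, with black bars at list medians and dashed lines at 1.5-fold. Most points lie inside the dashed lines, MAP4K4 lies at 0.85 and 1.0 in the top row against control, and CCN1 and CCN2 lie at -0.81 and -0.89 in the bottom row for ORF over shRNA.

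Over all 7 lists, 73 of 85 genes were above the floor. Of the 73, 2 (2.74%) were at least 1.5-fold higher and 2 (2.74%) lower for ORF over control, against 3.04% and 2.82% of all genes. For shRNA over control 3 (4.11%) were higher and 1 (1.37%) lower, against 3.59% and 3.3%. For ORF over shRNA 1 (1.37%) was higher and 5 (6.85%) were lower, against 2.64% and 2.68%. The counts against control thus lay near the shares of all genes above the floor. Of the 73, though, 67 were bright, and fewer bright genes pass 1.5-fold. The shares of all bright genes were 1.33% and 0.93% for ORF over control and 1.82% and 1.41% for shRNA over control. For ORF over shRNA they were 1.05% and 0.95%. The list shares include dim genes and rest on 1 to 5 genes each, so they cannot be set directly against these. The dim WTIP is among the genes lower in both ORF comparisons, and the dim ARHGEF17 is the only gene lower for shRNA over control. Nothing is read from the difference between the shares. The medians of the 73 genes were -0.03, 0.06 and -0.08 in the same order. Among the mesenchymal markers, COL1A1 read 9.97 (ORF), 10.62 (shRNA) and 9.82 (control), and FN1 read 10.85 (ORF), 11.26 (shRNA) and 10.43 (control). Both were highest on shRNA, as AMOTL2 was, and 3 of 5 measured COL1A1 probe sets and 4 of 4 of FN1 had that sign for shRNA over control. DCN, the proteoglycan decorin, was lowest on shRNA at 9.67 (ORF), 9.23 (shRNA) and 10.14 (control), a ratio of -0.90 for shRNA over control (noise SD 0.22) with that sign in 4 of 4 measured probe sets. VIM, which encodes vimentin, read 13.78 (ORF), 13.80 (shRNA) and 13.78 (control). The markers thus differed in direction. The signals of the 10 mesenchymal markers summed to 29279 (ORF), 33446 (shRNA) and 31331 (control) in linear units, and their part in the AMOTL2 result was not tested.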

How the data were processed

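Biotin-labelled cRNA was made from total RNA with a 3′ IVT kit and hybridised to short-oligonucleotide arrays, per the labels' protocols. Each probe set has 1 deposited value per array, a log2 signal, and the submitters' processing notes name MAS5, with no version, scaling target or detection call given in the sources used here. The log2 scale was read from the values. Linear trimmed means (2% from each end) were equal at 500.1 on the 3 arrays. Rescaling to them moved no value by more than 1.95e-06.

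Of 54675 probe sets, 41097 had 1 gene symbol in GEO's platform annotation, 1801 had several and 11777 had none. Probe sets with several or none were not used, and 41043 matched RefSeq's gene table (GRCh38.p14) by gene identifier. Each gene was represented by its probe set of highest mean signal. Signals were floored at the pooled median before ratios were taken. Genes were called at 1.5-fold. Noise SDs came from 5483 pairs of probe sets of 1 gene within 1 log2 unit of mean signal, in 20 bins of signal, as the root mean square difference of ratios over the square root of 2. Genes named from a pathway list were among its 3 bright genes with the largest ratios in a comparison. Dim genes past 1.5-fold and the markers cited were named after their values were seen. The 10 genes, the lists and the alternatives were chosen with earlier results of these data known. The number of arrays limits the precision, and no test was possible with 1 array per group. Python 3.11.15, pandas 2.3.3, numpy 2.4.6 and statsmodels 0.14.6 were used, and the ratio procedure was tested on simulated data.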

Additional observations from a re-analysis of the deposited data

How the results depend on the processing

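The alternatives were quantile normalization, loess centring, equal medians, no floor, a higher floor (75th percentile), the median over a gene's probe sets, leaving out _x_at and _s_at probe sets, and other fold thresholds. The AMOTL1 ratio to control kept its direction in all of them, between -1.86 and -0.54 for ORF and between -1.69 and -0.51 for shRNA. It moved by more than the noise SD to -1.57 for ORF with the higher floor, and to -0.54 and -0.51 with the median over probe sets. With that median, taken over floored ratios, 0 genes were lower in either comparison, in place of 1. For shRNA over control 2 genes were higher at 1.3-fold and 0 at 2-fold, and for ORF over shRNA 0 were lower at 2-fold. List medians moved to 0.027 for STRIPAK and Ajuba genes (ORF over shRNA, median over probe sets). Those of other TEAD partners moved to 0.57 (shRNA over control) and -0.75 (ORF over shRNA) without _x_at and _s_at probe sets, which leaves VGLL3 alone. Of 168 values for the other members, 157 stayed within the noise SD and 11 moved, all with the median over probe sets. Over all genes, counts past 1.5-fold in 1 direction were 334 to 455, but 582 to 749 with no floor, 54 to 109 with the higher floor and 176 to 241 with the median over probe sets. No paired analysis was possible because each group has 1 array.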
